A study of Homo sapiens with 12 samples.

Results

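tRNA-Glu-TTC-2-1 is a cytosolic tRNA that brings glutamate to the ribosome and reads codons with its anticodon TTC (UUC in the RNA). It was the only tRNA-Glu-TTC in the deposited lists of methylated cytosines, and its entries were gathered by that name. Its listed cytosines numbered 3 of 59 in the lists, at the neighbouring standard positions 48, 49 and 50, and they gave 14 of the 234 entries. The tRNA was chosen by the methylation levels of these neighbouring cytosines, so the contrast between them is described here and not tested. The comparison of Si with NC libraries was tested.

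RNA methylation was read by bisulfite sequencing, in which an unmodified cytosine is read as T and a methylated one stays C. The cells were U251, an established human glioblastoma line, in 3 libraries labelled Si and 3 labelled NC. All were treated with AlkB, an enzyme that strips base methylations which stop reverse transcription. The submitters' design text names an NSUN3 knockdown beside wild-type cells, and Si was taken to be that knockdown. The labels do not say what NC received, nor with what reagent or how far NSUN3 was lowered. The labels do not say that replicates came from separate cultures, so p-values measure the spread between these libraries, which may be technical. The 6 libraries of the second line, T98G, were not analysed here.

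5-methylcytosine in tRNA is made by enzymes that each act on few positions. The junction of the variable loop and the T stem, positions 48 to 50, is known as the target of NSUN2, whose marks protect tRNAs from cleavage. NSUN3, the enzyme named in the design, modifies the wobble cytosine of mitochondrial tRNA-Met, and no mitochondrial tRNA was listed. TRDMT1 is known for the anticodon loop cytosine 38.

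The gene sequence of the tRNA, as the files give it, is printed to show the run of 3 cytosines; capitals mark positions 48, 49 and 50, and T stands for U.
tRNA-Glu-TTC-2-1: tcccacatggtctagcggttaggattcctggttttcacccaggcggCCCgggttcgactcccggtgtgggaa
The gene lies on hg38 chromosome 13, 44917927 to 44917998, on the minus strand, and has the same start and end as the gene TRE-TTC2-1 in RefSeq (GRCh38.p14). It falls within the span of a long noncoding RNA gene, LOC107984619 (44905152 to 44924980), whose exons were not used here. The 3 cytosines are at 44917952 (position 48), 44917951 (position 49) and 44917950 (position 50). The files name 2 gene copies with this sequence, the other on chromosome 15, and their reads cannot be told apart. Position 48 is the last base of the variable loop. Positions 49 and 50 open the T stem, where all 5 base pairs are Watson-Crick in this sequence, with 49 opposite the G at 65 and 50 opposite the G at 64.

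The lists begin at 30 reads of coverage and a level of 10.0%, so the level of an unlisted site is unknown and was not taken as 0. Of the 21 cytosines in the 72 bases of this tRNA, 18 were listed in no library. Among these were C38 and its neighbours C39 and C40, as well as the cytosine of the anticodon at 36. No methylation level can be given for them.

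Position 49 was methylated in nearly every read. The NC libraries had 56 of 59, 49 of 50 and 45 of 46 reads unconverted, which are levels of 94.9%, 98% and 97.8%. The Si libraries had 72 of 73, 64 of 65 and 64 of 67, or 98.6%, 98.5% and 95.5%. Between 1 and 3 reads per library had lost the cytosine to conversion, and the groups overlapped. Exact binomial 95% intervals, which cover counting error only, reached down at the lowest to 85.9% among the NC libraries, in replicate 1, and to 87.5% among the Si libraries, in replicate 3.

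Position 50, the next base into the stem, was almost as high. Its NC levels were 96.7% over 60 reads, 90.6% over 53 and 94.1% over 51. In Si they were 93.2% over 73 reads, 90.6% over 64 and 91.3% over 69. The libraries of both groups again overlapped. Within a library, position 49 was above position 50 in 5 of 6, by 3.71 to 7.84 percentage points, and 1.75 points below it in NC replicate 1. These gaps amount to a few reads. Summed over all libraries, 27 of 370 reads were converted at position 50 and 10 of 360 at position 49.

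Position 48, directly before them, was barely methylated where it was listed. NC replicate 2 had 6 of 48 reads unconverted (12.5%, exact binomial 95% interval 4.73% to 25.2%) and NC replicate 3 had 5 of 44 (11.4%, 3.79% to 24.6%). In these libraries position 49 stood 85.5 and 86.5 percentage points higher, over coverage that differed by 2 reads. At position 48 bisulfite had converted 42 of 48 and 39 of 44 reads. In the same libraries its 3′ neighbour was read as C in all but 1 read of each. Position 48 lies in the loop and position 49 in the paired stem, and whether this affected conversion was not tested. Position 48 was not listed in NC replicate 1 or in any Si library, where its neighbours had 59 to 73 reads. Both listed levels lie just above the lowest listed level of 10.0%, so they describe the libraries that list the site, and no comparison of Si with NC was possible.

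**Figure D1:**
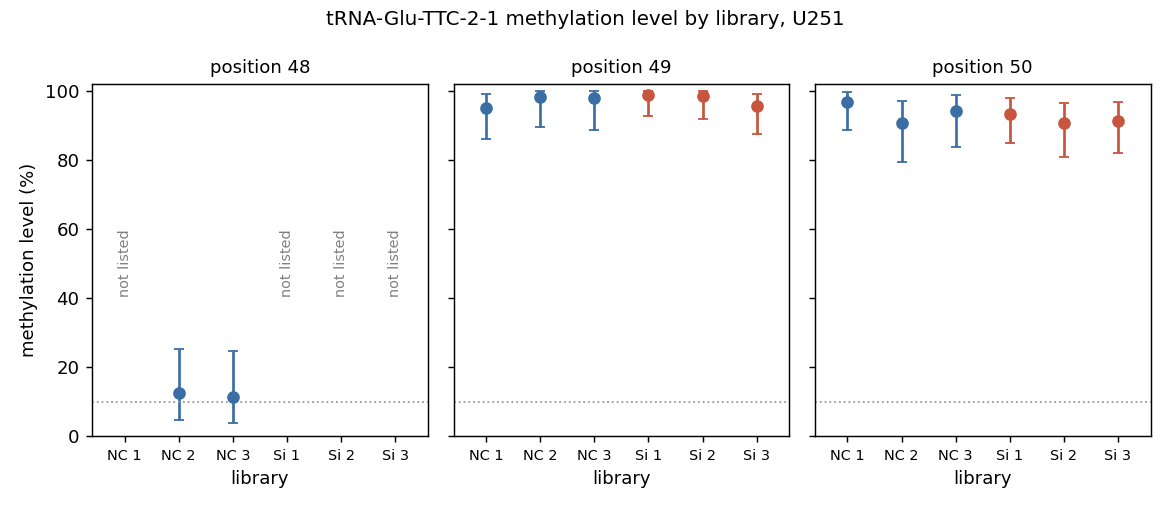
Methylation level (percent, y axis) of tRNA-Glu-TTC-2-1 at positions 48, 49 and 50 in each library (x axis; NC blue, Si red), with exact binomial 95% intervals as bars and the lowest listed level of 10.0% as a dotted line. Positions 49 and 50 lie above 90% in all 6 libraries, and position 48 is listed in 2 NC libraries at 12.5% and 11.4%.

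The first comparison asked whether methylation of the junction differed between Si and NC. At position 49 the NC libraries averaged 96.9% ± 1.73 (SD, n = 3) and the Si libraries 97.5% ± 1.75 (SD, n = 3), a difference of 0.624 ± 1.42 percentage points (SE). The exact two-sided permutation p was 0.5, and 0.75 after Benjamini-Hochberg adjustment over the 21 sites listed in all libraries. At position 50 the NC libraries averaged 93.8% ± 3.06 (SD, n = 3) and the Si libraries 91.7% ± 1.31 (SD, n = 3), a difference of -2.09 ± 1.92 points (SE), with an exact permutation p of 0.4 (0.75 adjusted). With 3 libraries against 3 the smallest p possible is 0.1. Both differences were within the spread between libraries. The sign at position 49 rested on NC replicate 1, since the difference was -0.375 points without that library. At position 50 it was -0.648 without NC replicate 1, and -3.70 without NC replicate 2.

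edgeR's quasi-likelihood test on methylated and unmethylated reads was fitted over the 31 sites listed in 2 or more libraries of each group. Some listed tRNAs have no such site. It gave log2 odds ratios of 0.41 at position 49 and -0.45 at position 50, Si against NC. Both had an adjusted p of 0.984. None of the 2 tested sites of tRNA-Glu-TTC passed the adjusted threshold of 0.05, and 0 had an unadjusted p under 0.05. Of all 31 sites, 3.23% passed and 6.45% had an unadjusted p under 0.05. Fisher's exact test, limma and quasi-binomial regression also called 0 of the 2. Fisher's test was run on reads summed within each group, so it ignores the spread between libraries. Each library had 46 to 73 reads at these positions, with 1 to 6 converted reads behind each level. The smallest change detectable with 3 libraries per group was not computed, and changes of a few percentage points may have been missed. Groups that do not overlap were found at 9.52% of the sites listed in all libraries, and at neither position of tRNA-Glu-TTC. Among the 16 tested junction cytosines of other tRNAs, 1 passed as lower in Si, position 48 of the initiator tRNA-iMet-CAT-1-1, and 0 as higher. The median log2 odds ratio was -0.15 over these 16 and -0.11 over all 31 tested sites.

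The same junction was read in other tRNAs, and their levels are set beside those of tRNA-Glu-TTC as a description. Of the 16 junction cytosines listed in all 6 libraries, position 49 of tRNA-Glu-TTC-2-1 had the highest mean over libraries and its position 50 the third highest, at 97.2% and 92.7%. The median over the 16 was 80.6% in NC and 78.5% in Si. tRNA-Glu-TTC-2-1 was chosen by the levels of its junction cytosines, so these ranks restate the choice. Junction cytosines listed in fewer libraries were not ranked. Among them, position 48 of tRNA-Thr-CGT-2-1 had 95.5% over 111 reads in 3 NC libraries.

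The tRNAs listed at both 48 and 49 numbered 8 and were gathered after their values were seen. Both tRNA-Gly-GCC and tRNA-Asp-GTC-2-5 also met the rule for comparison tRNAs, which took at most 3 by highest mean NC level. That rule favours high levels, and it left out tRNA-His-GTG-1-4, which had enough listed sites. Windows of the gene sequences around the junction are shown because 4 of these other tRNAs carry the run of 3 cytosines too, with very unlike levels at its first base. Capitals again mark positions 48 to 50.
tRNA-Glu-TTC-2-1: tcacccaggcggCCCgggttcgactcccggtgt
tRNA-Gly-GCC-1-1: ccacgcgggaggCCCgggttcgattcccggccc
tRNA-Gly-GCC-2-1: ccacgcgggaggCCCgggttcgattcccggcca
tRNA-Gly-CCC-1-1: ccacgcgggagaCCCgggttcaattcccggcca
tRNA-Gly-CCC-2-2: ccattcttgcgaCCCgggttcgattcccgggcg
tRNA-Asp-GTC-2-5: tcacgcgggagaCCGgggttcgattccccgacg
tRNA-Asp-GTC-1-1: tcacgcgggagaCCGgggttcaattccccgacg

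The glycine tRNAs with anticodon GCC share with tRNA-Glu-TTC-2-1 an unbroken run of 13 bases around the junction, 2 before the cytosines and 8 after them. Their position 48 was read as methylated in most reads. In tRNA-Gly-GCC-1-1 it was 228 of 297 reads over all libraries (76.8%, exact binomial 95% interval 71.5% to 81.5%), and in tRNA-Gly-GCC-2-1 it was 424 of 656 (64.6%, 60.8% to 68.3%). The corresponding value for tRNA-Glu-TTC-2-1 was 11 of 92 reads in its 2 listing libraries (12.0%, 6.12% to 20.4%). Intervals on summed reads cover counting error only, not the spread between libraries. The one for tRNA-Glu-TTC-2-1 holds only for the libraries that list the site. In the window of 33 bases tRNA-Glu-TTC-2-1 and each tRNA-Gly-GCC are identical at 25 bases. The number is 23 for tRNA-Gly-CCC-1-1, tRNA-Gly-CCC-2-2 and tRNA-Asp-GTC-2-5, 22 for tRNA-Asp-GTC-1-1 and 19 for tRNA-His-GTG-1-4. Whether the sequence bears on the level at position 48 was not tested. Both tRNA-Gly-GCC had lower levels than tRNA-Glu-TTC-2-1 at position 50. Over summed reads the level was 82.6% in tRNA-Gly-GCC-1-1 and 61.01% in tRNA-Gly-GCC-2-1, beside 92.7% in tRNA-Glu-TTC-2-1.

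The tRNA closest in pattern was tRNA-Gly-CCC-1-1, with 10.5% at position 48 (16 of 153 reads in 4 libraries), 89.5% at position 49 (204 of 228) and 89.7% at position 50 (165 of 184 in 5 libraries). It shares a run of 9 bases around the junction with tRNA-Glu-TTC-2-1. tRNA-Gly-CCC-2-2 was similar, but only Si libraries list it. It had 14.3% at position 48 in 1 Si library, and 80.5% at 49 and 83.2% at 50 in 3 Si libraries. For tRNA-Glu-TTC-2-1 the value at position 48 comes from NC libraries only. In tRNA-Asp-GTC-1-1 and tRNA-His-GTG-1-4, which have no cytosine at position 50, position 48 had 15.2% and 20.2% beside 89.2% and 86.0% at position 49.

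Of the 8 tRNAs, 5 had position 48 under 50% over summed reads, at 10.5% to 20.2%, with position 49 at 80.5% or more; the other 3 had it at 64.6% to 85.9%. tRNA-Asp-GTC-2-5 had the opposite order, with position 48 above position 49 in its summed reads (85.9% and 78.0%). In this set the mean gap between 49 and 48 was widest in tRNA-Glu-TTC-2-1, at 86.0 percentage points over 2 libraries. Next came tRNA-Gly-CCC-1-1, with 80.9 points over 4 libraries. tRNA-Glu-TTC-2-1 was chosen by this contrast, so its rank restates the choice, and the gaps come from unlike sets of libraries. The sums hold reads only from libraries that list a site, at 10.0% or more, and the levels elsewhere are unknown. Near-identical tRNAs can share or divide reads in ways the lists do not show.

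**Figure D2:**
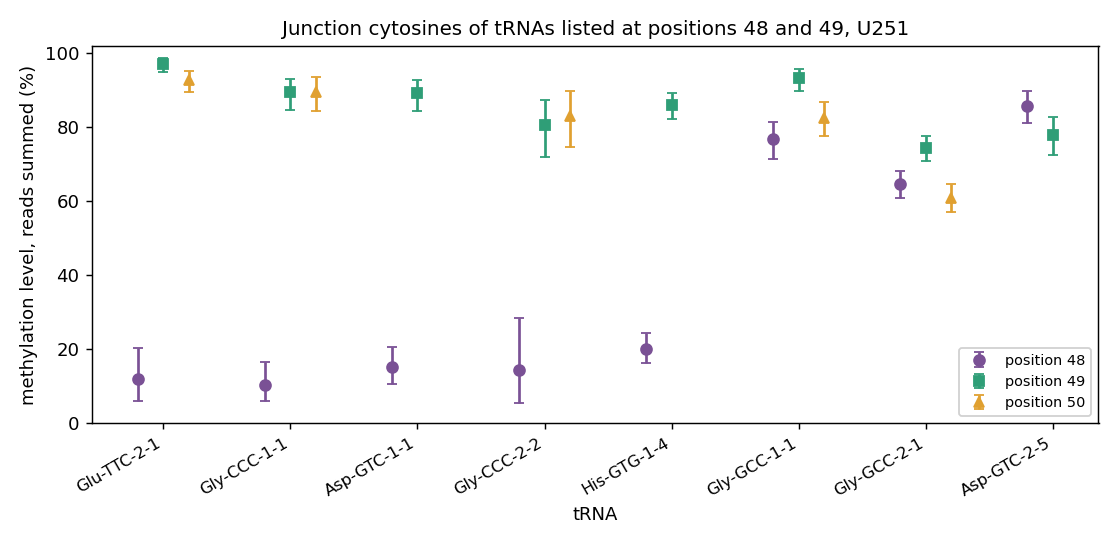
Methylation level (percent, y axis) at positions 48 (circles), 49 (squares) and 50 (triangles) of the 8 tRNAs listed at both 48 and 49 (x axis), from reads summed over the libraries that list each site, with exact binomial 95% intervals. The intervals cover counting error only. Position 48 lies between 10.5% and 20.2% in 5 tRNAs, tRNA-Glu-TTC-2-1 among them, and between 64.6% and 85.9% in the other 3.

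The second comparison asked whether the number of reads over tRNA-Glu-TTC-2-1 differed between the groups. The best covered site, position 50, had 60, 53 and 51 reads in the NC libraries and 73, 64 and 69 in the Si libraries, so every Si library was above every NC library. The means were 54.7 ± 4.73 and 68.7 ± 4.51 reads (SD, n = 3 each). Groups apart in this direction were found for 33.3% of the 9 tRNAs with a site listed in all libraries. Position 49 had 59, 50 and 46 reads in NC and 73, 65 and 67 in Si, the same order. Coverage changed little along the junction, by -1 to 5 reads from position 49 to 50. No read showed another base at these sites.

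As a share of the coverage summed over the 9 tRNAs, tRNA-Glu-TTC-2-1 had 8.52%, 8.26% and 7.36% in NC and 11.7%, 11.5% and 11.9% in Si. It rose in Si by 0.54 on the log2 scale, or 1.45-fold, with an adjusted p of 0.000701 by edgeR's quasi-likelihood test over the 9 tRNAs. By that test 33.3% of the 9 rose and 55.6% changed in either direction, so the call of tRNA-Glu-TTC-2-1 is no exception among them. The others that rose were tRNA-Gly-GCC-1-1 (1.50-fold) and tRNA-Gly-GCC-2-1 (1.85-fold).

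The rise depends on what it is set against. tRNA-iMet-CAT-1-1 took 28.8% ± 1.46 of the summed coverage in the NC libraries (SD, n = 3) and 15.8% ± 0.971 in the Si libraries (SD, n = 3). With this tRNA left out, an alternative chosen after seeing the data, the rise of tRNA-Glu-TTC-2-1 was 0.30 on the log2 scale, 1.23-fold, with an adjusted p of 0.0613 over 8 tRNAs, and it did not pass. With no scaling between libraries it was 0.33 (1.26-fold, adjusted p = 0.0451), where the median of all 9 tRNAs moved to -0.20. DESeq2 gave 0.43, with an adjusted p of 0.0946, and called 11.1% of the 9 tRNAs higher. The direction was upward in each of these. The amount of the tRNA, its recovery, and its removal by size selection or filters cannot be told apart from read coverage at listed sites.

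**Figure D3:**
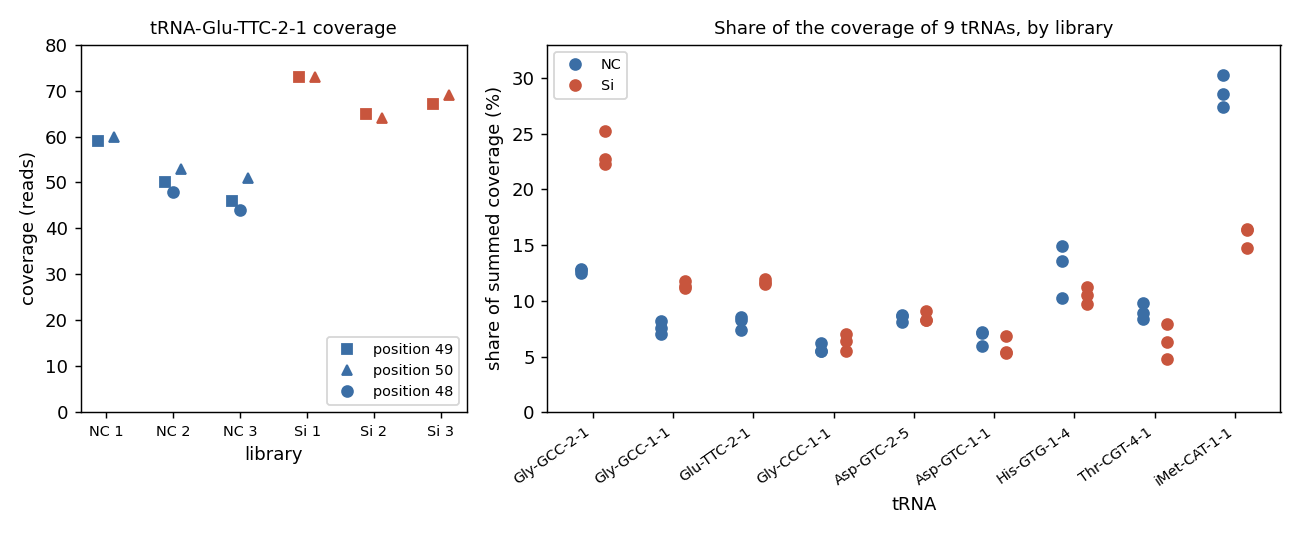
Left, coverage (reads, y axis) of tRNA-Glu-TTC-2-1 at its listed positions in each library (x axis; NC blue, Si red). Right, share (percent, y axis) of the coverage summed over 9 tRNAs, each at its best covered site listed in all libraries, with a point per library (tRNAs on the x axis). At position 50 the Si libraries have 64 to 73 reads and the NC libraries 51 to 60, while the share of tRNA-iMet-CAT-1-1 averages 28.8% in NC and 15.8% in Si.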

How the data were processed

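Per the labels' protocols, small RNA was enriched from TRIzol extracts, demethylated with AlkB and bisulfite converted before library construction. cutadapt 1.9.3 and hg38 are named in the submitters' processing notes; aligner, site caller and filters: not given in the sources used here. The authors deposited, per site and library, counts of all reads, of unconverted cytosines and of reads with another base, and the level as a fraction, which matched the level recomputed here as unconverted reads over coverage less reads with another base. Lists begin at 30 reads and 10.0%, so library depth is unknown; coverage at listed sites was 30 to 210 reads. Incomplete conversion and other bisulfite-resistant modifications also leave unconverted cytosines.

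The files count bases from the 5′ end; bases 47, 48 and 49 of tRNA-Glu-TTC-2-1 are standard positions 48, 49 and 50, with the anticodon at 34 to 36 and later bases counted back from the 3′ end. Levels were compared by exact permutation tests (scipy 1.17.1, Python 3.11.15). A site entered the test in edgeR 4.0.16 (R 4.3.3) when 2 or more libraries per group listed it with 10 or more reads. The negative binomial dispersion was estimated without a trend, and the quasi-likelihood step kept edgeR's defaults. The fit had an intercept per library and Benjamini-Hochberg adjustment over all tested sites. The scripts were tested on simulated data. limma 3.58.1 used log2 ratios computed from the deposited counts with 1 added. Coverage was tested in edgeR with the sum over 9 tRNAs as library size, and in DESeq2 1.42.0. Alternatives were other tests, scalings, a minimum of 40 reads, a replicate block and leaving out each library. Every listed tRNA-Glu-TTC cytosine was named. Comparison tRNAs had to be listed in all libraries at 2 or more of positions 48 to 50. At most 3 were taken, by highest mean NC level, which left out tRNA-His-GTG-1-4 at 55.1%. The tRNAs beyond that rule were chosen after their values were seen. The members, lists and tests were chosen with earlier results of these data known.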

Additional observations from a re-analysis of the deposited data

How the results depend on the processing

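Over 12 alternatives, 0 of the 2 tested sites of tRNA-Glu-TTC-2-1 passed, the replicate block included. The log2 odds ratio at position 49 reversed without NC replicate 1 (-0.16; range -0.16 to 1.10 when each library was left out), and that at position 50 ran from -0.89 to -0.098 and stayed negative. The level difference reversed at position 49 without NC replicate 1 (-0.375 percentage points; -0.375 to 1.63 over libraries left out) and ran from -3.70 to -0.648 at position 50; the cause was not tested. Replicate numbers mark no known pairing: between same-numbered libraries the correlations of their deviations over 21 sites were 0.0616, 0.265 and -0.376. With the replicate block the permutation p was 0.75 at position 49 and 0.5 at position 50, and the coverage rise was 0.54 on the log2 scale. Of 13 alternatives for coverage, 11 kept the call. It was lost with DESeq2 (0.43, cause not tested) and without tRNA-iMet-CAT-1-1 (0.30), the largest part of the summed coverage in NC; over libraries left out it was 0.48 to 0.59, with adjusted p from 0.00165 to 0.00707. With 1 to 6 converted reads per level at positions 49 and 50, counting error limits each difference.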
